A study of Homo sapiens with 34 samples.

Results

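Mantle cell lymphoma (MCL) lines were compared with lines of diffuse large B-cell lymphoma (DLBCL) with a germinal centre B-cell phenotype (GCB DLBCL) over the whole transcriptome, using libraries of comparable depth. The series holds RNA sequencing of 34 established human lymphoma cell lines, each with 1 library, and its title concerns CXCR4 as a target for imaging and therapy in MCL. All 11 MCL lines (GRANTA519, HBL-2, Jeko-1, JVM2, MAVER-1, Mino, REC-1, SP-49, SP-53, UPN1 and Z-138) and 6 of the 14 GCB DLBCL lines (HT, Pfeiffer, SU-DHL-10, SU-DHL-4, SU-DHL-5 and Toledo) were used, 17 of the 34 lines. No treatment or genetic change is named in the labels, libraries were prepared from total RNA, and not all at the same time. A cell line descends from the tumour of a single patient, so each line is one example of its disease, and the lines served as the replicates.

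The lines were chosen by a measured value. A line was kept where ZNF593, a zinc finger protein gene, lay above the lowest value of the table, 4.55, and lines at that value were left out. Just inside the limit was HBL-2 with 8.71, and the highest was JVM2 with 11.88. The 8 GCB DLBCL lines outside it (DB, DOHH-2, Karpas422, NU-DHL-1, OCI-Ly1, OCI-Ly7, SU-DHL-6 and WSU-DLCL2) lay at 4.55, which is 0 reads. ZNF593 is given as a description and supports none of the comparisons.

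MCL arises mostly from B cells of the mantle zone that resemble naive cells, and a translocation that places CCND1 beside the immunoglobulin heavy chain locus drives constant production of cyclin D1. GCB DLBCL resembles germinal centre B cells, in which BCL6 represses genes of activation and of plasma cells while the antibody genes are mutated and switched. Naive and germinal centre B cells also differ in the receptors that position them within the follicle, among them S1PR1, S1PR2 and GPR183.

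Values are variance-stabilised read counts in log2 units, in which a gene with 0 reads sits at 4.55. Well above that value a difference of 1 is close to a 2-fold ratio of reads, and near it differences are compressed and understate the ratio. Reads per library, recovered from the values, ranged from 60.1 to 109 M in MCL and from 70.8 to 108 M in GCB DLBCL (M for 1000000), against 2.55 to 4.84 M in the 8 lines left out. Each difference is the MCL mean minus the GCB DLBCL mean ± standard error from limma, and a gene is called where its Benjamini-Hochberg adjusted p over all 17416 genes tested is under 0.05. Since a line has 1 library, p-values measure the spread between lines, and in bulk RNA fewer expressing cells and less RNA per cell cannot be told apart.

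The labelled B-cell origin was checked on markers. The summed level of 7 B-cell markers was 1229 to 6332 reads per M in MCL and 2695 to 3685 in GCB DLBCL, and 0 of the 7 were called. Over 17 measured T-cell and NK-cell markers (12 tested) the sum was 1.41 to 245 reads per M in MCL and 5.31 to 835 in GCB DLBCL. Over 12 measured myeloid markers (6 tested) it was 0.448 to 20.7 and 1.16 to 68.8, with CD68 at 10 reads or fewer in every line. The 7 measured erythroid and platelet markers (2 tested) summed to 0.366 to 4.20 and 0.176 to 4.89 reads per M. HBA1 and ALAS2 among them were at 10 reads or fewer in every line. The 14 measured stromal and epithelial markers (8 tested) summed to 12 to 173 and 0.559 to 317, with COL3A1 at 10 or fewer. Of these 4 lists PECAM1, a stromal and endothelial marker that belongs also to the integrin and homing list, was the single member called.

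Of the 6 GCB DLBCL lines, Toledo and Pfeiffer stood apart from the other 4, and of the MCL lines JVM2 did. On the first principal component, with 20.6% of the variance, SU-DHL-10, SU-DHL-4, SU-DHL-5 and HT lay between 92.1 and 109, Pfeiffer at 14.6 and Toledo at 1.27, and the MCL lines between -69.2 and -14.7. On the second component (15.1%) JVM2 lay at 160 and the other 16 lines between -59.0 and 37.4. Over the 585 called genes described next, the share at which a line lay nearer the MCL mean was 4.27 to 7.69% in 4 GCB DLBCL lines, 23.4% in Pfeiffer, 45.6% in Toledo, and 79.3% (JVM2) to 94.7% (Mino and SP-49) in MCL. These lines made the means and the calls, so the shares are a description. Among lines outside the comparison the share was 48.2 to 60.3% in lines of the activated B-cell type of DLBCL (ABC DLBCL), 24.3 to 39.8% in Burkitt lymphoma lines and 13.2 to 53.7% in the 8 shallow GCB DLBCL lines. The ABC DLBCL lines include NU-DUL-1 (52.1%), which lay at 0 reads of ZNF593 with 22.7 M reads in all. Daudi, a Burkitt line, had 444 reads of ZNF593 with 22.6 M. Why some libraries lack ZNF593 reads was not tested.

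**Figure D1:**
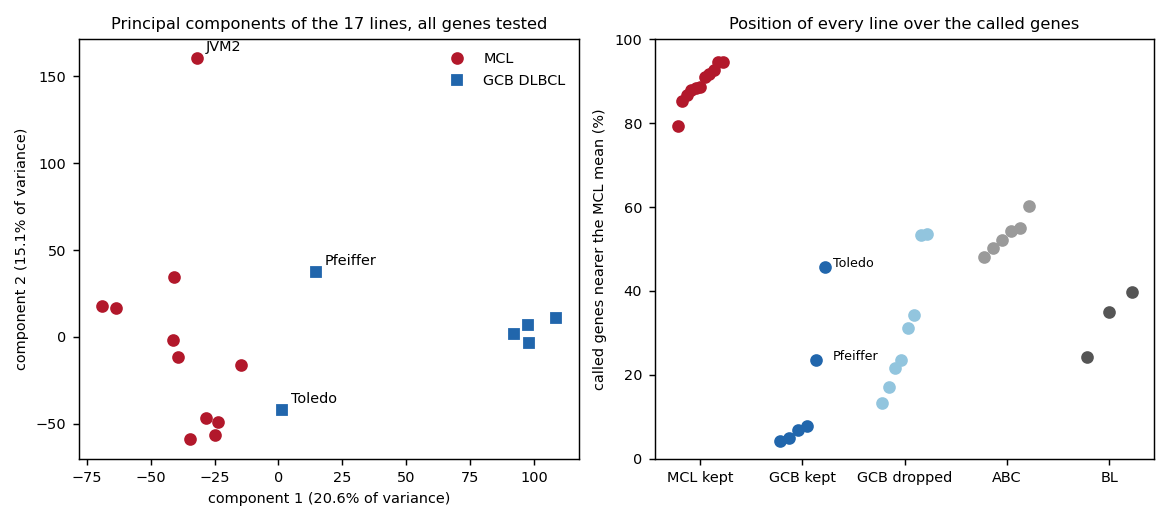
Left, the first (x axis) and second (y axis) principal components of the 17 lines over all genes tested; right, for every line of the series by group, the percentage of the 585 called genes at which it lies nearer the MCL mean than the GCB DLBCL mean. Pfeiffer and Toledo lie between the MCL lines and the other 4 GCB DLBCL lines on component 1, JVM2 lies apart on component 2, and Toledo reaches 45.6% on the right.

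Between MCL and GCB DLBCL 585 genes were called, 3.36% of those tested, with a median absolute difference of 2.17. Of these, 368 genes were higher in MCL (2.11%) and 217 lower (1.25%), so 62.9% of the calls were higher. That split moved with the scaling. It was 40.4% higher after each library was centred on its median, with a median difference over all genes of -0.14 in place of 0.05, 48.3% after quantile normalization and 53.5% with limma voom on the recovered reads. In 59 genes every MCL line lay above every GCB DLBCL line (0.339% of genes tested), and 55 of these were called. In 32 genes every MCL line lay below (0.184%), and 28 were called.

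The counts depended on single GCB DLBCL lines. Without Toledo 567 genes were called higher (3.26%) and 414 lower (2.38%), and the genes without overlap numbered 174 and 127. Without SU-DHL-5 the calls were 166 higher and 86 lower, without SU-DHL-10 159 and 97, without HT 175 and 106, and without SU-DHL-4 200 and 98. Without Pfeiffer and Toledo together they were 712 and 503, and without JVM2 and Toledo together 752 and 527. Toledo and Pfeiffer were the GCB DLBCL lines most often nearest MCL, at 47.9% and 23.8% of called genes. JVM2 was the MCL line most often nearest GCB DLBCL (16.9%). Leaving out lines nearest the other group favours larger differences, so values without them are a description and support no call. The rule for naming genes gave 76 called genes, and 42 of them were called whichever single line was left out, and beside the others below stands the number of single lines that ended the call, with the highest adjusted p that resulted. With limma voom 26 of the 76 calls were lost. Of the 42, these were APP, ENTPD1, FARP1, FCRL5, MAP1B, PTK2, SOX11 and ZCCHC14 (highest adjusted p = 0.384, for MAP1B). The others were CDKN1B, CREB3L2, FCGR2B, GPR183, IFIT3, IGLC3, KLF2, MX1, MYBL1, NELL2, PECAM1, PLAC8, PMAIP1, PRKCB, RGS13, ROR1, SLC16A1 and XAF1. ELL3 and FCRL5, of the 42, were not called with all 14 GCB DLBCL lines (adjusted p = 0.119 for ELL3). Without Pfeiffer and Toledo together, IGHD, BCL2L11, FCGR2B, IGLC3, PECAM1, RICTOR and IFIT3 were not called (adjusted p of 0.0546 for IGHD to 0.120 for RICTOR). HBL-2, MAVER-1 and UPN1, all MCL, are not marked as re-analysed in the labels, whereas all 6 GCB DLBCL lines are, and with marked lines only 264 genes were higher and 167 lower, and 25 of the 76 calls were lost.

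CXCR4, the receptor of the chemokine CXCL12 and the gene of the series' title (chr2:136114349-136118149, RefSeq on GRCh38.p14), varied widely within both groups. In MCL it ran from 10.17 in REC-1 through a median of 14.25 to 15.37 in SP-53. In GCB DLBCL it ran from 8.45 in HT through a median of 12.63 to 14.73 in Toledo. The groups overlapped over most of their range, and 8 of the 11 MCL lines lay above the GCB DLBCL median. The difference of 1.22 ± 0.89 did not pass the test (two-sided exact permutation test on the absolute difference over 12376 arrangements, p = 0.228; limma adjusted p = 0.512). Without HT, the lowest line, it was 0.46 (exact permutation p = 0.610), and without Pfeiffer and Toledo 2.16 (exact permutation p = 0.0681). With all 14 GCB DLBCL lines, 8 of them shallow, it was 2.04 (permutation p = 0.0427).

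CCND1, cyclin D1 (chr11:69641156-69654474), had the largest difference of the called genes. It ranged from 12.59 in JVM2 through a median of 16.83 to 17.36 in Z-138, which is 6581 to 453072 reads, and in GCB DLBCL from 4.74 in HT to 7.06 in Pfeiffer, which is 1 to 194 reads. The groups did not overlap (10.59 ± 0.61, adjusted p = 1.68e-08). SOX11, a transcription factor used to recognise MCL, lay between 9.26 and 13.09 in 10 MCL lines and at 4.84, or 1 read, in JVM2. In GCB DLBCL it was at 4.76 or below in 5 lines and at 6.87 in SU-DHL-5 (5.38 ± 0.84, adjusted p = 0.00217). JVM2 thus had the lowest CCND1 of the MCL lines and lay in the GCB DLBCL range of SOX11.

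**Figure D2:**
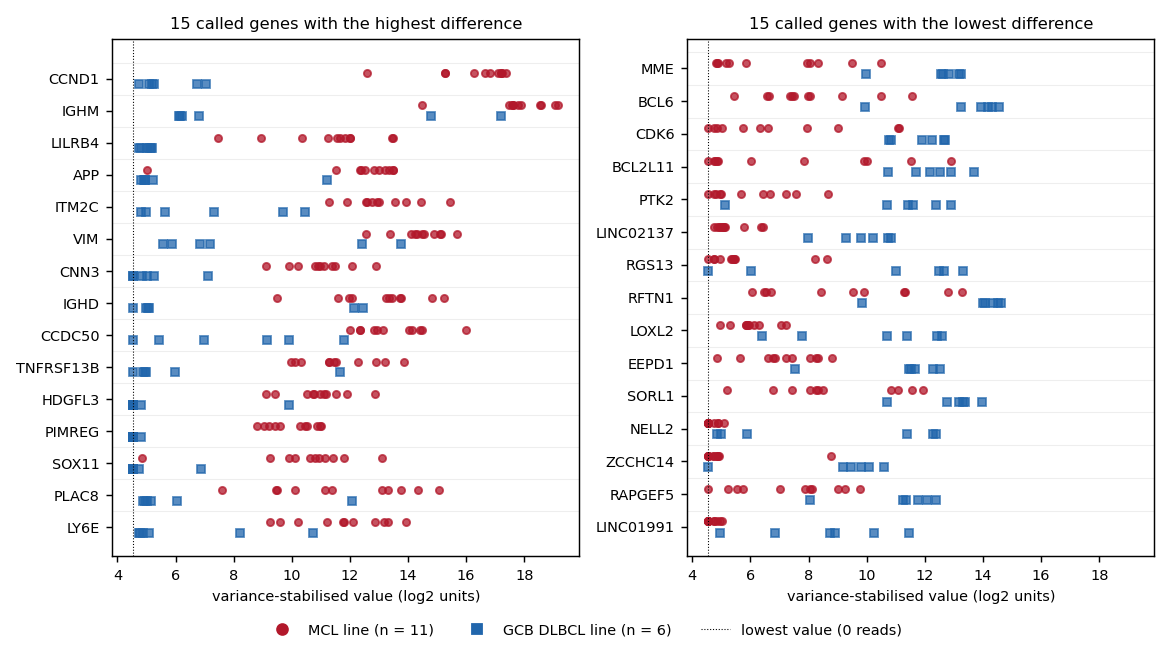
Variance-stabilised value in log2 units (x axis) in each line, 1 point per line, for the 15 called genes with the highest and the 15 with the lowest difference (y axis); MCL and GCB DLBCL lines are drawn in different colours and the dotted line marks 0 reads. CCND1, LILRB4, ITM2C, CNN3, CCDC50 and PIMREG on one side and LINC02137 on the other show no overlap, while single GCB DLBCL lines reach the MCL range in APP, HDGFL3, PLAC8 and TNFRSF13B.

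Gene lists, here and below, were chosen with earlier results of these data known, so their counts are a description and support no claim of enrichment. Over all genes tested 2.11% were higher and 1.25% lower. Of 14 MCL marker genes 5 were called higher and 0 lower, with a median difference of 2.81 beside 0.05 over all genes tested. Besides CCND1 and SOX11 these were HDGFL3, FARP1 and ROR1. With limma voom 2 of the 14 were called, CCND1 and HDGFL3. HDGFL3, of the hepatoma-derived growth factor family, lay at 9.10 to 12.85 in MCL, at 4.81 or below in 5 GCB DLBCL lines and at 9.92 in Pfeiffer (5.43 ± 0.72, adjusted p = 0.000499). FARP1, a guanine nucleotide exchange factor, ranged from 5.76 in HBL-2 to 12.71 in SP-49 against 4.55 to 5.29 in 5 GCB DLBCL lines and 8.59 in Pfeiffer (5.17 ± 0.98, adjusted p = 0.00794). ROR1, a receptor-like surface protein, ranged from 5.40 in JVM2 to 11.39 in HBL-2 against 4.81 or below in 5 GCB DLBCL lines and 9.95 in Toledo (4.21 ± 0.94, adjusted p = 0.0210). The ROR1 call ended without HT, SU-DHL-10, SU-DHL-4 or SU-DHL-5 (highest adjusted p = 0.0589), and without Toledo the difference was 5.09. HDGFL3, FARP1 and ROR1 were not limited to MCL. In the 5 ABC DLBCL lines above the ZNF593 limit HDGFL3 lay at 9.34 to 10.01, within the MCL range. FARP1 ran there from 5.12 through a median of 6.80 to 10.82, and ROR1 from 4.82 through 5.24 to 10.29. In the 3 Burkitt lines the highest values were 4.90, 5.50 and 7.86. CD5, a T-cell antigen that many MCL cells carry, was at 4.55 to 11.40 in MCL and 4.73 to 5.01 in GCB DLBCL and did not pass the test (3.0 ± 0.94, adjusted p = 0.0880).

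Of 21 germinal centre genes tested, 8 were lower in MCL and 0 higher, with a median of -2.16. Without Toledo 13 were lower, and without Jeko-1, Mino, SP-53, SU-DHL-10, SU-DHL-4 or SU-DHL-5 alone, 5. With limma voom 6 were lower. MME, the surface peptidase CD10 (chr3:155024202-155183729), ran from 4.81 in Z-138 through a median of 5.84 to 10.49 in UPN1, and in GCB DLBCL from 9.98 in Pfeiffer to 13.26 in SU-DHL-4. The ranges met at UPN1 and Pfeiffer alone (-5.58 ± 0.87, adjusted p = 0.00196). BCL6, the repressor that holds B cells in the germinal centre state (chr3:187721377-187745468), ran from 5.45 in JVM2 through 7.49 to 11.55 in SP-53 against 13.23 to 14.55 in 5 GCB DLBCL lines and 9.93 in Toledo (-5.35 ± 0.82, adjusted p = 0.00187). SP-49 and SP-53 were the MCL lines above Toledo, and without Toledo the difference was -6.03.

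The other called germinal centre genes were S1PR2, GNA13, RGS13, NEIL1, MYBL1 and ELL3. S1PR2 and GNA13 are a receptor and a G protein that confine B cells to the germinal centre. S1PR2 lay at 5.76 to 10.27 in MCL and at 11.36 to 13.04 in 5 GCB DLBCL lines, with Toledo at 6.95 (-3.78 ± 0.79, adjusted p = 0.0138; -4.69 without Toledo). GNA13 was expressed in all 17 lines and did not overlap, at 11.07 to 12.39 in MCL and 12.83 to 14.09 in GCB DLBCL (-1.47 ± 0.23, adjusted p = 0.00243). RGS13, a regulator of G protein signalling, was at 10.99 to 13.31 in 4 GCB DLBCL lines but at 4.55 in Pfeiffer and 6.02 in Toledo, against 4.55 to 8.62 in MCL (-4.29 ± 1.14, adjusted p = 0.0462). NEIL1, a DNA glycosylase, differed by -3.43 ± 0.87, MYBL1, of the MYB transcription factor family, by -2.54 ± 0.65 and ELL3, an elongation factor, by -2.16 ± 0.37. The calls of RGS13, NEIL1 and MYBL1 ended without any of 13, 11 and 10 single lines, with highest adjusted p of 0.133, 0.0978 and 0.119. SERPINA9 and LMO2, 2 further germinal centre markers, had -4.49 ± 1.36 and -2.99 ± 0.89 and did not pass the test (adjusted p = 0.0799 and 0.0741). Both were called without Toledo, which is a description only, since Toledo lay nearest MCL.

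**Figure D3:**
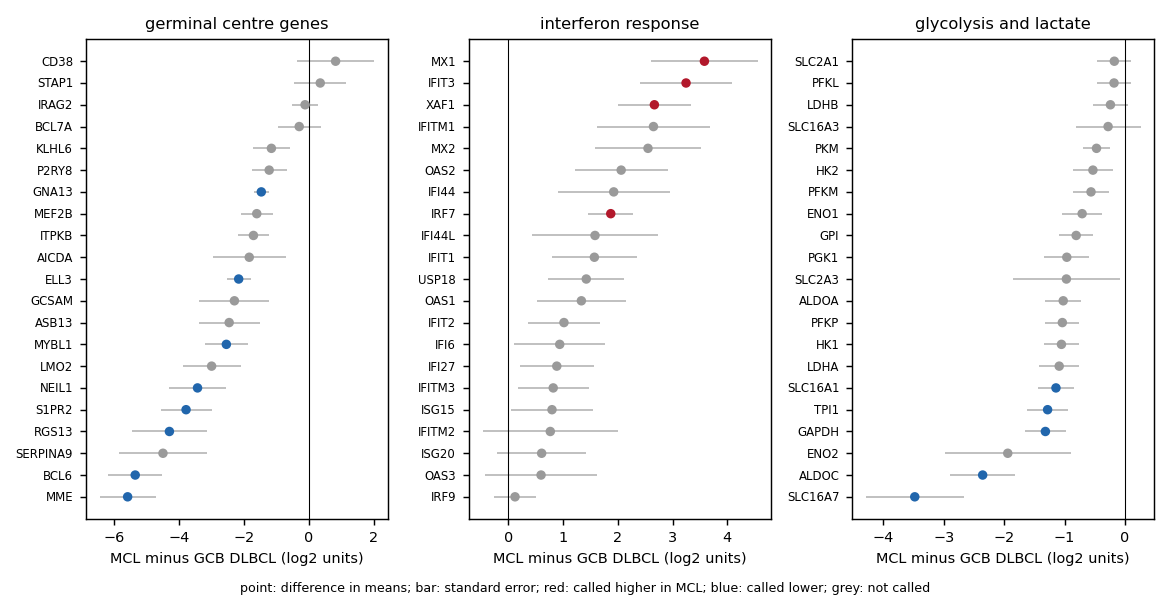
Difference MCL minus GCB DLBCL in log2 units (x axis) with its standard error for every tested member (y axis) of the germinal centre, interferon response and glycolysis and lactate lists, with called members coloured. Each list has 21 tested members, of which 8 are called lower in the first, 4 higher in the second and 5 lower in the third.

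Genes used to recognise activated B cells had calls in the other direction, 5 of 15 higher and 0 lower, with a median of 2.42. TNFRSF13B, the receptor TACI for the survival factors BAFF and APRIL, was at 9.98 to 13.85 in MCL and at 5.99 or below in 5 GCB DLBCL lines, with Toledo at 11.66 (5.48 ± 0.89, adjusted p = 0.00282). CCDC50, a signalling adaptor, did not overlap, at 11.99 to 15.99 against 4.55 to 11.80 (5.54 ± 0.88, adjusted p = 0.00235). ENTPD1, the ectonucleotidase CD39, did not overlap either (4.59 ± 0.87, adjusted p = 0.00794), and LIMD1, a scaffold protein, differed by 2.84 ± 0.60 (adjusted p = 0.0152; 0.0504 without SU-DHL-5). IRF4, a transcription factor of activated B cells and plasma cells, was at 11.10 to 13.73 in MCL. In GCB DLBCL it was at 4.74 to 5.21 in 4 lines and at 12.89 and 13.93 in Pfeiffer and Toledo. The IRF4 difference was 4.92 ± 1.23 (adjusted p = 0.0343), or 7.73 without Pfeiffer and Toledo, and its call ended without any of 8 other single lines (highest adjusted p = 0.100, without SU-DHL-10).

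Of 12 plasma cell genes 2 were higher and 0 lower, with a median of 0.34 (0.70 without Pfeiffer and 0.16 without SU-DHL-5). PRDM1, the repressor BLIMP1, ran from 7.59 to 10.36 in MCL and from 4.79 to 9.86 in GCB DLBCL (2.69 ± 0.68, adjusted p = 0.0366), and CREB3L2, a transcription factor of secretory cells, differed by 3.77 ± 0.89 (adjusted p = 0.0270). Their calls ended without any of 10 and 3 single lines, with highest adjusted p of 0.103 and 0.0808, both without SU-DHL-10. XBP1, which drives secretion, had 1.62 ± 0.86 (adjusted p = 0.338). Of 20 B-cell transcription factors KLF2, which holds lymphocytes in a resting, recirculating state, was the single call (median of the list -0.10), beside 3.36% called over all genes tested. KLF2 lay at 7.85 to 12.85 in MCL, at 5.07 to 7.32 in 5 GCB DLBCL lines and at 10.96 in Toledo (3.30 ± 0.86, adjusted p = 0.0428), and its call ended without any of 12 single lines (highest adjusted p = 0.116, without SU-DHL-5).

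Of 14 immunoglobulin constant genes 3 were higher and 0 lower, with a median of 0.88 (1.37 without Pfeiffer). IGHM, the constant region of IgM (chr14:105851966-105856217), lay at 17.48 to 19.17 in 10 MCL lines and at 14.48 in SP-49. In GCB DLBCL it was at 6.13 to 6.80 in SU-DHL-4, SU-DHL-10, Toledo and Pfeiffer, at 14.78 in HT and at 17.18 in SU-DHL-5 (8.25 ± 1.43, adjusted p = 0.00465). IGHD, of IgD, split the GCB DLBCL lines in the same way, with HT and SU-DHL-5 at 12.14 and 12.43 and the other 4 at 5.09 or below, against 9.50 to 15.24 in MCL (5.60 ± 1.19, adjusted p = 0.0154; 0.0516 without SU-DHL-10). IGLC3, a lambda light chain constant region, differed by 4.73 ± 1.25 (adjusted p = 0.0444), and its call ended without any of 14 single lines, Toledo and Pfeiffer among them (highest adjusted p = 0.112). IGHG1, of IgG1, was at 5.27 to 13.36 in MCL, at 12.25 to 13.74 in those 4 GCB DLBCL lines and at 5.21 and 5.49 in HT and SU-DHL-5, and was not called (-2.24 ± 1.51, adjusted p = 0.471). Constant genes of one class are near copies of each other, so the split of reads between them is uncertain.

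Of 22 B-cell receptor signalling genes 2 were higher and 0 lower, with a median of 0.30. With limma voom 0 were called. PRKCB, the protein kinase C that links the receptor to NF-kB, lay at 8.98 to 14.10 in MCL and 6.03 to 12.65 in GCB DLBCL (3.50 ± 0.86, adjusted p = 0.0329), and its call ended without any of 9 single lines, Pfeiffer among them (highest adjusted p = 0.0971). FCGR2B, the inhibitory receptor for IgG, differed by 2.73 ± 0.65 (adjusted p = 0.0290), and its call ended without SU-DHL-10 or SU-DHL-5 (highest adjusted p = 0.0789). FCGR2C, a near copy of FCGR2B, was called too (2.37; ended without any of 10 single lines, Pfeiffer among them, highest adjusted p = 0.0831), so the division of reads between them is uncertain. Of 22 genes of the NF-kB pathway and its targets 0 were called with limma or limma voom, 3 had an unadjusted p under 0.05, the median was 0.09, and the largest difference was that of the chemokine CCL4 with 4.21 ± 1.42 (adjusted p = 0.113).

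Of 16 chemokine and positioning receptors 2 were higher and 1 lower, with a median of 1.39. S1PR1, which leads lymphocytes out of lymphoid tissue, lay at 8.11 to 13.21 in MCL, at 6.08 or below in 5 GCB DLBCL lines and at 9.92 in Toledo (4.27 ± 0.83, adjusted p = 0.00909; 5.07 without Toledo). GPR183, the oxysterol receptor EBI2 that draws B cells to the outer follicle, lay at 7.05 to 13.57 in MCL, at 6.61 or below in 5 GCB DLBCL lines and at 12.88 in Pfeiffer (4.31 ± 1.07, adjusted p = 0.0338; 5.52 without Pfeiffer). The GPR183 call ended without any of 11 other single lines (highest adjusted p = 0.0972, without SU-DHL-10). The member called lower was S1PR2, so 2 receptors for the same lipid were called in opposite directions. CCR7, which guides lymphocytes to T-cell zones, had 3.78 ± 1.27 (adjusted p = 0.112), and CXCR5, which guides B cells to follicles, -0.88 ± 1.21 (adjusted p = 0.759). Without Toledo 5 members were higher, CCR7 among them, and 2 lower, again as a description only. Of 18 integrins and homing genes PECAM1 was the single call (3.06 ± 0.75, adjusted p = 0.0320), ended without GRANTA519, HT, Pfeiffer or SU-DHL-10 (highest adjusted p = 0.0918), and the median of the list was 1.14. A single call in such a list says little about it, as 3.36% of all genes tested were called.

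Promoter sequences of 4 called genes are printed because they hold the motifs counted next. Each is the 250 bases before the RefSeq start on GRCh38.p14, read 5′ to 3′ on the gene's own strand, with motif matches in capitals. IRF4 (chr6:391502-391751, + strand) has TATAAA close to the start, GPR183 (chr13:99307400-99307649, - strand) has 3 matches of it farther from the start, 2 of them overlapping, MARCKS (chr6:113857095-113857344, + strand) has ACAATG on the opposite strand, and RFTN1 (chr3:16513700-16513949, - strand) has TTCCNNGAA.
IRF4: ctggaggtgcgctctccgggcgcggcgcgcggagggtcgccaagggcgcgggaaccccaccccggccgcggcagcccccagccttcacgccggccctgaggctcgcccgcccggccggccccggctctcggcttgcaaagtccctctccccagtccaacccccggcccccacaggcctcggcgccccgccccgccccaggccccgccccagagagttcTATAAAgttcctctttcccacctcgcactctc
GPR183: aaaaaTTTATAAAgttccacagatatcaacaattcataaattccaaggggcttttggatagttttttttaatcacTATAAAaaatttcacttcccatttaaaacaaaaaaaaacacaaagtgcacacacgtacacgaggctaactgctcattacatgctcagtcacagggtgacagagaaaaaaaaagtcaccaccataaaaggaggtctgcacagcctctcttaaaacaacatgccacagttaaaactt
MARCKS: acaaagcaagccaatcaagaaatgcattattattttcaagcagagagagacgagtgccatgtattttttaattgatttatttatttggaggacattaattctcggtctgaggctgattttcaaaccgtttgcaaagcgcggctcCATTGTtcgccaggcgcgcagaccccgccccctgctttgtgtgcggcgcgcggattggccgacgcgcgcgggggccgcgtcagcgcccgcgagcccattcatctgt
RFTN1: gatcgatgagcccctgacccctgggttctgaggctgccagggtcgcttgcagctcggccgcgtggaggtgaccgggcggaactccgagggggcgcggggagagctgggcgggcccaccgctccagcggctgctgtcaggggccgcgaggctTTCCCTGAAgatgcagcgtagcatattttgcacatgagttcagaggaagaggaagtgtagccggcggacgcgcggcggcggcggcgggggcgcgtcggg

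Both strands of these windows were searched, in 8563 tested genes with a promoter sequence, 161 of them called higher and 101 lower. TATAAA, the TATA box, was in 5.66% of all windows, 10.6% of those of genes called higher and 4.95% of those called lower. ACAATG, the core bound by SOX factors, was in 4.93, 7.45 and 2.97%. TTCCNNGAA, which STAT proteins and BCL6 bind, was in 4.02, 2.48 and 3.96%, and the NF-kB consensus in 0.549, 0 and 0.990%. The median number of CpG dinucleotides was 21 over all windows, 23 in genes called higher and 24 in genes called lower. A window counts once for a motif however many matches it holds, and matches of one motif may overlap those of another. No test was made, and a match is a description of the letters only.

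Cyclin D1 was not the only difference among G1 to S regulators. Of 21 tested, 3 were higher and 2 lower, with a median of -0.40. CCND3, cyclin D3, did not overlap, at 9.88 to 11.33 in MCL and 11.59 to 13.95 in GCB DLBCL (-2.24 ± 0.34, adjusted p = 0.00176). CDK6, a kinase partner of the D cyclins, ranged from 4.55 in Jeko-1 to 11.12 in JVM2 against 10.75 to 12.70 in GCB DLBCL (-4.85 ± 0.97, adjusted p = 0.0106), and GRANTA519 and JVM2 were the MCL lines within the GCB DLBCL range. CDK4, the other partner kinase, had 0.73 ± 0.33 (adjusted p = 0.260). The kinase inhibitors CDKN1C and CDKN1B were higher, by 3.51 ± 0.69 (adjusted p = 0.00989) and 1.59 ± 0.41 (adjusted p = 0.0429), and the CDKN1B call ended without any of 12 single lines (highest adjusted p = 0.106). CDKN2A, which encodes p16, was at 10.98 to 12.44 in GCB DLBCL and at 4.55 to 13.32 in MCL, where 7 lines lay at 6.31 or below, and did not pass the test (-4.19 ± 1.40, adjusted p = 0.111).

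In the BCL2 family 1 of 15 was higher and 2 lower, with a median of 0.10. BCL2L11, the killer protein BIM, was at 10.73 to 13.69 in GCB DLBCL. In MCL it was at 4.55 to 6.02 in Jeko-1, SP-53, SP-49, Mino, Z-138 and UPN1 and at 7.84 to 12.92 in the other 5 (-4.83 ± 1.22, adjusted p = 0.0364). MCL1, a survival protein, was expressed in all 17 lines, at 11.97 to 13.58 in MCL and 13.12 to 14.17 in GCB DLBCL (-1.11 ± 0.23, adjusted p = 0.0143). PMAIP1, the killer protein NOXA that binds MCL1, was higher (2.26 ± 0.58, adjusted p = 0.0379). The calls of BCL2L11 and PMAIP1 each ended without any of 11 single lines, Pfeiffer among them, with highest adjusted p of 0.0859 and 0.106, both without HT. Of 18 genes of the p53 pathway 0 were called with limma or limma voom, 2 higher and 1 lower had an unadjusted p under 0.05, and the median was 0.04. Of 18 proliferation genes PIMREG was the single call (median -0.10), beside 3.36% called over all genes tested. MKI67, which encodes the Ki-67 antigen, had -0.58 ± 0.38 (adjusted p = 0.449).

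PIMREG and RTL6 were the only genes with at least 100 reads in every MCL line and at most 10 in every GCB DLBCL line (0.0115% of genes tested), and 0 genes had the opposite pattern. PIMREG, a mitotic protein, had 785 reads in JVM2 to 4927 in Z-138, against 0 in 5 GCB DLBCL lines and 2 in SU-DHL-5 (5.42 ± 0.35, adjusted p = 7.04e-08). Outside the comparison it had 0 reads in the 6 ABC DLBCL lines, 0 to 2 in the 3 Burkitt lines and up to 29, in OCI-Ly7, in the 8 shallow GCB DLBCL lines. The OCI-Ly7 library holds 3.27 M reads, and on the variance-stabilised scale its PIMREG value was 8.39, close to the lowest MCL value of 8.79. The counter and annotation are not given in the sources used here, and the part of counting in the 0 reads of PIMREG was not tested. RTL6, a gene derived from a retrotransposon, had 105 reads in JVM2 to 6838 in SP-49 against 0 to 1 (5.32 ± 0.44, adjusted p = 2.01e-06). RTL6 was not limited to MCL, with 0 to 1421 reads in ABC DLBCL and 2 to 32 in Burkitt lines. Without Toledo ABCD2, TBC1D27P and TRIM72 joined them and LINC01991 had the opposite pattern, and without Pfeiffer and Toledo 23 genes were on in MCL and off in the remaining 4 GCB DLBCL lines, IRF4 and TNFRSF13B among them.

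Cytoskeletal genes gave 6 higher and 1 lower of 27, with a median of 0.41, beside 2.11% higher and 1.25% lower over all genes tested. This list, like the others, was chosen with earlier results of these data known, so its count is a description. CNN3, a calponin that binds actin, did not overlap, at 9.13 to 12.89 in MCL and 4.55 to 7.10 in GCB DLBCL (5.76 ± 0.49, adjusted p = 2.12e-06). VIM, vimentin, was at 12.57 to 15.69 in MCL, at 5.55 to 7.19 in 4 GCB DLBCL lines and at 12.42 and 13.75 in HT and Toledo (5.80 ± 1.01, adjusted p = 0.00465). MARCKS, a membrane protein that binds actin, differed by 5.01 ± 1.01, the microtubule protein MAP1B by 4.65 ± 0.99, the small GTPase RHOB by 3.45 ± 0.67 and the actin capping protein CAPG by 3.13 ± 0.59. MARCKS lay at 11.25 to 14.18 in MCL and at 4.74 to 6.33 in 4 GCB DLBCL lines, but at 11.36 in Toledo and 13.07 in Pfeiffer, and without both the difference was 7.28. PTK2, focal adhesion kinase, was lower, at 4.55 to 8.65 in MCL and 10.68 to 12.91 in 5 GCB DLBCL lines, with Toledo at 5.13 (-4.67 ± 0.93, adjusted p = 0.0106; -5.78 without Toledo).

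Of 13 neuronal genes tested 3 were higher and 0 lower (median 0.54), MAP1B, ITM2C and APP. ITM2C, a membrane protein that interacts with the amyloid precursor, did not overlap, at 11.28 to 15.43 in MCL and 4.82 to 10.45 in GCB DLBCL (5.97 ± 0.79, adjusted p = 0.000516). APP, the amyloid precursor protein itself, lay at 11.53 to 13.48 in 10 MCL lines and at 5.03 in MAVER-1, against 4.82 to 5.22 in 5 GCB DLBCL lines and 11.21 in Pfeiffer (6.10 ± 1.15, adjusted p = 0.00794; 7.14 without Pfeiffer). SORL1, a sorting receptor of that precursor and not a list member, was lower, at 5.20 to 11.92 against 10.70 to 13.96 (-3.98 ± 0.88, adjusted p = 0.0194; 0.0523 without SU-DHL-10).

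Inhibitory receptors gave 3 higher and 0 lower of 18, with a median of 0.92. LILRB4, an inhibitory immunoglobulin-like receptor (chr19:54662985-54668718), ran from 7.45 in REC-1 through 11.65 to 13.47 in SP-49, or 273 to 33965 reads, and was at 1 to 12 reads in GCB DLBCL (6.26 ± 0.69, adjusted p = 6.35e-05). PDCD1, the receptor PD-1, did not overlap either, at 6.29 to 11.23 against 4.74 to 6.11 (3.75 ± 0.64, adjusted p = 0.00433). FCRL5, a B-cell receptor for IgG, differed by 4.53 ± 0.87 (adjusted p = 0.00853). CD274, the ligand PD-L1, was highest in JVM2 with 12.58 and had 1.73 ± 0.88 (adjusted p = 0.316).

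All 21 interferon response genes had a positive difference as deposited, and 20 of 21 after centring or quantile normalization, but 4 were called and 0 lower, with a median of 1.42. With limma voom all 21 were positive and 1 was called. IFIT3, an antiviral protein, was at 6.0 to 12.57 in MCL and 4.79 to 7.15 in GCB DLBCL (3.25 ± 0.83, adjusted p = 0.0398). MX1, an antiviral GTPase, differed by 3.58 ± 0.97 (adjusted p = 0.0499), IRF7, which drives interferon genes, by 1.87 ± 0.41 (adjusted p = 0.0192), and XAF1, a pro-apoptotic target, by 2.67 ± 0.67 (adjusted p = 0.0364). JVM2 had the highest IFIT3, IRF7 and XAF1 of the 17 lines, and without it the median was 0.99, 20 members were positive and MX1 was not called (adjusted p = 0.0611). The calls of IFIT3, MX1, IRF7 and XAF1 ended without any of 10, 14, 3 and 7 single lines, with highest adjusted p of 0.0984, 0.137, 0.0532 and 0.0918. LY6E, an interferon-induced surface protein outside the list, was at 9.26 to 13.92 in MCL and at 4.74 to 5.09 in 4 GCB DLBCL lines, with Toledo at 8.21 and Pfeiffer at 10.73 (5.34 ± 0.90, adjusted p = 0.00379).

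Of 13 MHC class I genes NLRC5, the activator of the others, was the single call (2.35 ± 0.48, adjusted p = 0.0125; list median 0.96), and of 12 MHC class II genes 0 were called with limma or limma voom, with 0 at an unadjusted p under 0.05. The MHC class II median of -0.37 rested on single lines, at 0.01 without Pfeiffer (7 of 12 positive in place of 2), 0.16 without REC-1 and -0.69 without HT. Of 23 cytokine receptor and JAK-STAT genes 0 were called with limma and 1 lower with limma voom (1 higher and 2 lower at an unadjusted p under 0.05; median 0.17). Of 21 Notch and Wnt genes the Wnt co-receptor LRP5 was the single call (2.99 ± 0.67, adjusted p = 0.0211; list median 0.72), ended without HT, SU-DHL-10 or SU-DHL-5 (highest adjusted p = 0.0657). Of 18 BMP and TGF-beta genes the signal mediator SMAD5 was the single call (-1.05 ± 0.26, adjusted p = 0.0318; list median 0.28), ended without SP-49, SU-DHL-10, SU-DHL-4 or SU-DHL-5 (highest adjusted p = 0.0884). Over all genes tested 3.36% were called, so the single calls of NLRC5, LRP5 and SMAD5 say little about their lists. Of 21 PI3K and mTOR genes 2 were lower (median -0.11). DEPTOR, an inhibitor of mTOR, was at 5.57 to 8.55 in MCL, at 10.20 to 12.58 in 5 GCB DLBCL lines and at 6.55 in Toledo (-3.64 ± 0.69, adjusted p = 0.00794), and RICTOR, a subunit of mTOR complex 2, had -0.95 ± 0.25 (adjusted p = 0.0466; ended without any of 13 single lines, Toledo and Pfeiffer among them, highest adjusted p = 0.111). Of 17 chromatin regulators (median -0.31), 20 ribosomal protein genes (median -0.35) and 12 histone genes (median 0.13) 0 were called with limma or limma voom. At an unadjusted p under 0.05 there were 2 higher and 1 lower chromatin regulators, 0 ribosomal protein genes and 3 higher histone genes. Leaving out single lines turned the sign of the median of the B-cell transcription factor, NF-kB, p53, PI3K and mTOR, MHC class II, myeloid, erythroid and B-cell marker lists, which lay between -0.37 and 0.09 as deposited.

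**Figure D4:**
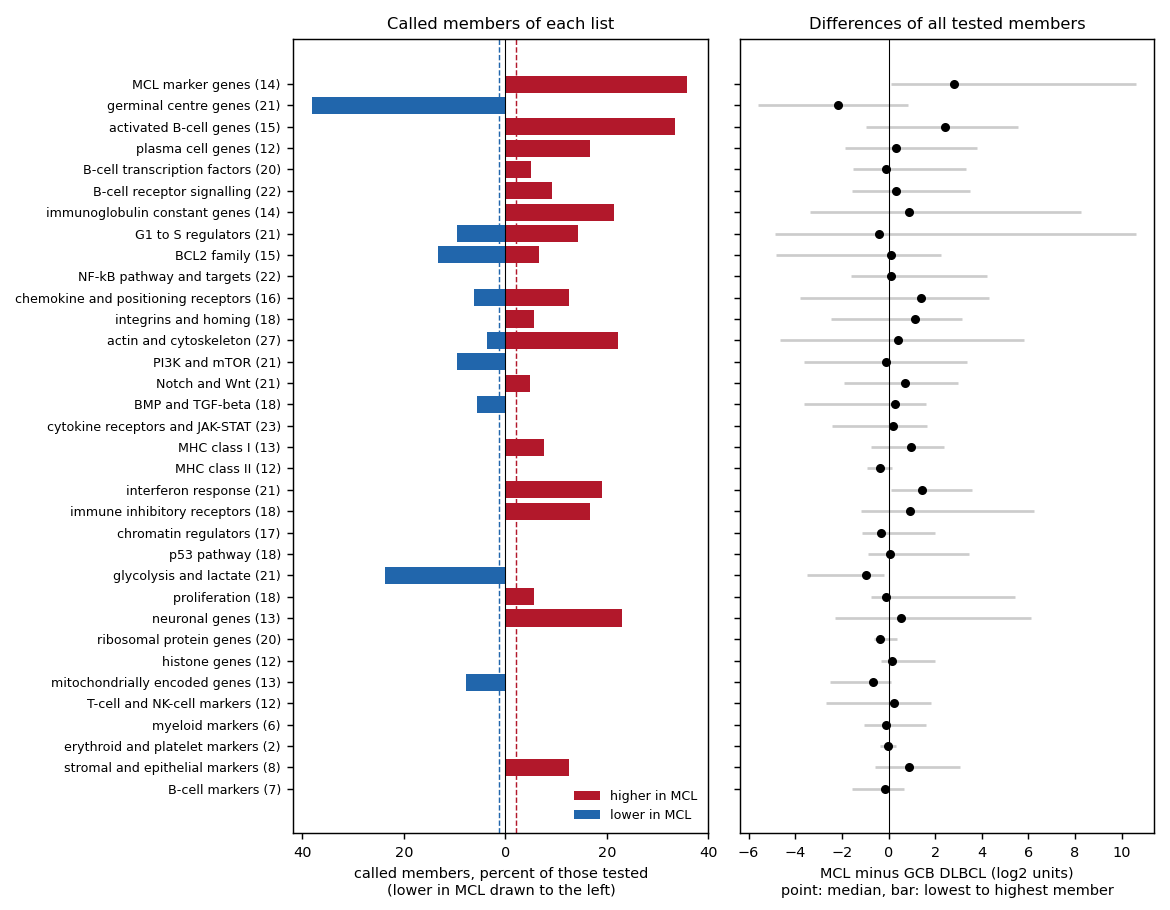
Left, the percentage of tested members of each gene list (y axis) called higher (drawn to the right) or lower in MCL (drawn to the left), with dashed lines at the shares over all genes tested, 2.11 and 1.25%; right, the median difference MCL minus GCB DLBCL in log2 units (point) and the range from the lowest to the highest member (bar). MCL markers and activated B-cell genes reach furthest to the right, with medians of 2.81 and 2.42, and germinal centre genes furthest to the left, with a median of -2.16. The lists were chosen with earlier results of these data known, so the shares are a description.

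Glycolysis and lactate transport genes had a negative difference in 21 of 21 members, with 5 called lower, 0 higher and a median of -0.97. With all 14 GCB DLBCL lines 4 members were positive. SLC16A7, the lactate and pyruvate transporter MCT2, did not overlap, at 4.55 to 9.60 in MCL and 9.66 to 10.51 in GCB DLBCL (-3.48 ± 0.81, adjusted p = 0.0261). ALDOC, an aldolase, differed by -2.36 ± 0.53 (adjusted p = 0.0227), SLC16A1, the transporter MCT1, by -1.14 ± 0.30 (adjusted p = 0.0427), and TPI1, triosephosphate isomerase, by -1.28 ± 0.34 (adjusted p = 0.0462). GAPDH, often used as a reference gene, was at 16.85 to 18.36 in MCL and 18.05 to 20.21 in GCB DLBCL (-1.32 ± 0.33, adjusted p = 0.0373), and with all 14 GCB DLBCL lines the sign turned (0.02). The calls of SLC16A7, ALDOC, SLC16A1, TPI1 and GAPDH ended without any of 4, 4, 8, 12 and 10 single lines, with highest adjusted p of 0.0641, 0.0674, 0.0986, 0.135 and 0.116. Without Toledo, or without JVM2, 9 members were lower, and without HT, SU-DHL-10 or SU-DHL-5 0 were called with limma, though 10 to 12 had an unadjusted p under 0.05.

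Genes outside the lists were also among the largest differences. PLAC8, a small cysteine-rich protein, was at 7.61 to 15.05 in MCL and at 6.06 or below in 5 GCB DLBCL lines, with Toledo at 12.07 (5.36 ± 1.18, adjusted p = 0.0192; ended without HT, SU-DHL-10 or SU-DHL-4, highest adjusted p = 0.0561). PDE3B, a phosphodiesterase (5.04), CDIP1, which promotes cell death (4.95), ENPP2, the enzyme autotaxin (4.95), EGLN3, an oxygen-sensing hydroxylase (4.12), SPRY2, an inhibitor of receptor kinases (4.10), the growth factor PDGFA (3.90) and the growth factor receptor FGFR1 (3.66) were called without overlap. So were the death-pathway genes CASP10 (3.16) and MLKL (2.44) and the polycomb gene BMI1 (1.40), the latter with 9.36 to 10.37 in MCL against 8.16 to 9.0. These 10 genes were picked after their values were seen, from called genes without overlap. All 10 were called whichever single line was left out, which such a choice favours, so this is a description only. Of the 76 called genes named by rule, 42 were.

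Among genes lower in MCL, LINC02137, a long non-coding RNA (chr16:58421326-58462861), did not overlap, at 4.73 to 6.43 in MCL and 8.0 to 10.85 in GCB DLBCL (-4.51 ± 0.40, adjusted p = 3.51e-06). RFTN1, a lipid raft protein that supports B-cell receptor signalling, was at 6.07 to 13.28 in MCL and at 13.99 to 14.63 in 5 GCB DLBCL lines, with Toledo at 9.84 (-4.26 ± 1.12, adjusted p = 0.0441; ended without any of 12 single lines, Pfeiffer among them, highest adjusted p = 0.109). LOXL2, a lysyl oxidase, differed by -4.17 ± 0.75, and EEPD1, a nuclease-like protein, by -4.00 ± 0.68. Toledo lay within the MCL range of both, at 6.38 and 7.53. ZCCHC14, a zinc finger protein, had 0 reads in Toledo and was at 9.17 to 10.58 in the other 5 GCB DLBCL lines, against 4.55 to 4.92 in 10 MCL lines and 8.76 in MAVER-1 (-3.86 ± 0.76, adjusted p = 0.0102). RAPGEF5, an exchange factor for Rap GTPases, differed by -3.86 ± 0.81 with Pfeiffer lowest of its group at 8.04. NELL2, a secreted protein, was at 11.38 to 12.38 in SU-DHL-5, SU-DHL-10 and SU-DHL-4 and at 5.89 or below in every other line (-3.95 ± 1.01, adjusted p = 0.0397; ended without any of 13 single lines, highest adjusted p = 0.114).

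Some called genes lay near one another. In 27 runs (23 higher, 4 lower) at least 3 called genes of one direction followed each other with gaps of at most 1 Mb. The runs held 95 of the 527 called genes with a position, and most also held tested genes that were not called. How many runs the density of genes alone would give was not tested, so the count is a description. Around BCL6 on chromosome 3, LINC01991 (-3.83) and LPP (-2.42) were lower with it, 3 of 4 tested genes of the span. LINC01991 was at 4.55 to 5.0 in MCL and 4.94 in Toledo against 6.84 to 11.44 in the other 5 GCB DLBCL lines. GAPDH, TPI1, LPCAT3 (-0.98) and PEX5 (-1.56) on chromosome 12 were 4 of 37 tested genes of their span. Runs of higher genes held the inflammatory caspase genes CASP4 (3.03) and CASP1 (4.09) with CARD16 (2.17), 3 of 3 tested, the cytidine deaminases APOBEC3C (1.98), APOBEC3F (1.67) and APOBEC3G (3.05), 3 of 4, and LINC00996 (4.77) with the lymphocyte GTPases GIMAP8 (2.82) and GIMAP2 (2.28), 3 of 3. Of these, the calls of LPP, LPCAT3, CASP4, CARD16, APOBEC3F, GIMAP2 and, below, RTL8A ended without any of 13, 2, 2, 5, 9, 5 and 4 single lines (highest adjusted p = 0.135, for LPP). RTL8C (3.59) and RTL8A (3.19) on X are near copies of each other, so their division of reads is uncertain. By chromosome, 3.07% of tested genes of chromosome 8 and 2.63% of chromosome 3 were lower, beside 1.12% of all genes with a position. On chromosome 13, 4.39% were higher beside 2.22%.

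Of 13 mitochondrially encoded protein genes 1 was called, MT-ND6, lower, with a list median of -0.66. MT-ND6, a subunit of respiratory complex I and the only protein of the light strand transcript, ran from 9.06 in MAVER-1 through 10.90 to 12.01 in Jeko-1, and in GCB DLBCL from 12.83 to 13.33. The groups did not overlap (-2.52 ± 0.38, adjusted p = 0.00176). Looked at for that reason, and hence with no test, the light strand transcript held 9 genes in the table. Of these 7 were tested and all 7 were called lower, with a median of -2.0, from MT-TA (-2.58), MT-TQ (-2.44) and MT-TS1 (-2.0) to MT-TP (-1.56), MT-TY (-1.53) and MT-TE (-1.15), which are transfer RNA genes. Of 19 tested genes of the heavy strand transcript 1 was called, MT-TD (-1.03; ended without SU-DHL-4 or SU-DHL-5, highest adjusted p = 0.0581), and the median was -0.66. Reads of one strand lie over genes of the other, and whether counting used strand is not given in the sources used here. Of 557 antisense genes tested, 4 were higher (0.718%) and 6 lower (1.08%), with a median of 0.05. The shares over all genes tested were 2.11% and 1.25%. The antisense count is a description, and the part of strand in the counting was not tested. MT-ND4, a complex I subunit of the heavy strand transcript, did not overlap either but missed the threshold (adjusted p = 0.0557).

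**Figure D5:**
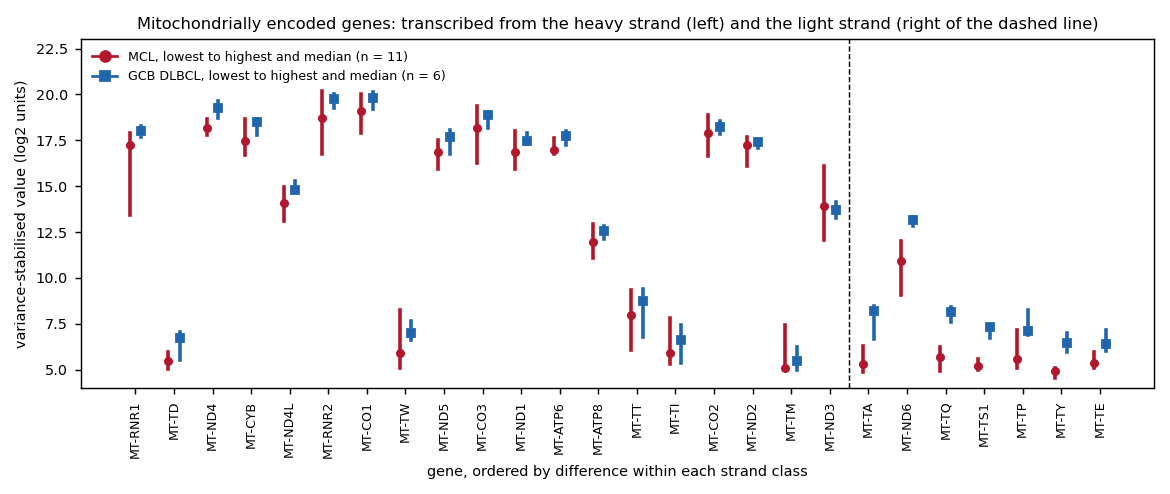
Variance-stabilised value in log2 units (y axis) of the tested mitochondrially encoded genes, ordered by difference within each strand class (x axis), as the median (point) and the lowest to highest line (bar) of the 11 MCL and 6 GCB DLBCL lines, with genes of the heavy strand transcript left and of the light strand transcript right of the dashed line. MCL lines lie below GCB DLBCL lines in MT-ND6 (9.06 to 12.01 against 12.83 to 13.33) and in most other light strand genes.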

How the data were processed

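RNA sequencing of 34 lymphoma cell lines was deposited by the authors as one table of 31975 genes, holding variance-stabilised counts on a log2 scale with no column outside the labelled lines. The submitters' processing notes name STAR 2.5.3a, DESeq2 1.26.0, R 3.6.1 and GRCh38, with no roles. The counter, annotation, filters and use of strand are not given in the sources used here. Inverting the transform gave whole reads (within 0.05) for 100% of values, and these reads give the depths.

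Groups came from the labels, and the limit of 4.56 on ZNF593 chose the lines. The lines, gene lists and tests were chosen with earlier results of these data known. Genes more than 1 log2 unit above the lowest value in at least 3 of the 17 lines were tested with limma 3.58.1 (R 4.3.3, intensity trend) and Benjamini-Hochberg adjustment. CXCR4 was also tested by permutation (SciPy 1.17.1, NumPy 2.4.6, pandas 2.3.3, Python 3.11.15). The fit was tested on reads simulated for the 17 lines, with 200 of 17417 genes changed. It recovered 10% of 2-fold, 52% of 4-fold, 82% of 8-fold and 84% of 16-fold changes, with 10 false calls. The changed genes were not drawn from those of lowest mean level. Reads were drawn independently, with no line set between the groups as Toledo and Pfeiffer are. Recovery for low genes and for such lines was not tested. A gene that was not called may therefore still differ.

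Named genes are CXCR4, CCND1, SOX11, the 15 called genes with the highest and the 15 with the lowest difference, every called member of a list, members needed for its range, and genes with at least 100 reads in every line of one group and at most 10 in every line of the other. Symbols were found for 31574 identifiers and positions for 24812, from RefSeq tables. Alternatives were the filter, scaling, limma voom, robust fit, other sets of lines, and leaving out each line.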

Additional observations from a re-analysis of the deposited data

Results flagged for a closer look

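In 22 of the 77 named genes with 6 GCB DLBCL lines compared, 1 line of that group lay far from the other 5 relative to the group's range. Chance gives this in about 1 group in 20 where values are independent and normally distributed, but these genes were nearly all chosen as called, share the same 6 lines and include values at 0 reads, so that rate is no reference for the count. Toledo was that line in 12 genes, Pfeiffer in 7, SU-DHL-5 in 2 and HT in 1.

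Toledo was high where the other GCB DLBCL lines were low in TNFRSF13B (11.66), PLAC8 (12.07), ROR1 (9.95), S1PR1 (9.92) and IRF7 (10.28). It was low where the others were high in BCL6 (9.93), PTK2 (5.13), RFTN1 (9.84), EEPD1 (7.53), SORL1 (10.70), ZCCHC14 (4.55) and S1PR2 (6.95). In each of these 12 genes Toledo lay on the side of the MCL lines.

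Pfeiffer was high in APP (11.21), HDGFL3 (9.92), FARP1 (8.59), GPR183 (12.88) and MAP1B (7.99), and low in MME (9.98) and RAPGEF5 (8.04). SU-DHL-5 was high in the transcription factor SOX11 (6.87) and, by 2 reads, in PIMREG (4.81). HT was high in CNN3 (7.10).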

How the results depend on the processing

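As deposited, 368 genes were higher and 217 lower, and leaving out 1 line gave 159 to 567 and 86 to 414. The ranges were 26 to 53 and 11 to 35 for list genes, 62 to 174 and 33 to 127 for genes without overlap, 2 to 5 on and 0 to 1 off in MCL, 9 to 34 lower on chromosome 3 and 7 to 22 on chromosome 8, and 0.456 to 1.71 for CXCR4. Centring gave 434 lower genes (36 on chromosome 3), quantile normalization 351 lower, and voom 201 higher, 23 of them list genes. With all 14 GCB DLBCL lines there were 2157 higher and 1236 lower genes, 109 and 48 of the lists, 13 and 4 without overlap, 98 and 53 lower on chromosomes 3 and 8, CXCR4 at 2.04 (permutation p = 0.0427) and GAPDH reversed (0.0158). With re-analysed lines only, 120 and 102 genes did not overlap. At limits of 200 and 5 reads 1 gene was on. In alternatives chosen after seeing the data, leaving out JVM2 and Toledo gave 752 and 527 genes, 39 lower list genes, 265 and 165 without overlap, 7 on and 1 off, and 42 lower on chromosome 3. Leaving out Pfeiffer and Toledo gave 712 and 503, 430 and 277 without overlap, 23 on and 1 off, and 38 and 32 lower on chromosomes 3 and 8. The cause was not tested. No filter, a stricter filter, a robust fit and all lines above the ZNF593 limit kept both counts within 1.5 times, but the genes called changed. With no filter 254 of the 368 higher and 148 of the 217 lower calls remained, and 20 of the 76 named calls were lost. A stricter filter kept 333 and 148, and a robust fit 359 and 204. All lines above the limit kept 318 and 184, and 9 named calls were lost. No paired analysis was possible because each line has 1 library and the labels link no MCL line to a GCB DLBCL line. The small number of GCB DLBCL lines, 6, limits the precision of every difference.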
